A study of Bos taurus with 36 samples.

Results

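The genes described here are 10 genes of the major histocompatibility complex (MHC) pathways that load peptides and show them at the cell surface: B2M, TAP1, TAP2, TAPBP and NLRC5 for class I, and CIITA, CD74, BOLA-DRA, BOLA-DMA and BOLA-DMB for class II. They were chosen by name, and each symbol was matched through the bovine RefSeq annotation to its Entrez identifier in the count table, where all 10 of the 10 were found among 35092 genes. The libraries came from 10 male bovine fetuses collected on Day 42 of gestation and from the 10 heifers that carried them. Embryos of Day 7 had been transferred to the uterus of a heifer on Day 7 of the cycle (ET_D7, synchronous, fetuses 1 to 5) or on Day 9 (ET_D9, asynchronous, fetuses 6 to 10). Numbers follow the order of weight, with fetus 1 at 1.253 g and fetus 10 at 1.69 g, so every ET_D9 fetus was heavier than every ET_D7 fetus and the effects of weight and of transfer group cannot be told apart. The study set maternal blood beside the fetal heart, gonads and liver to ask whether blood reflects fetal weight and organ growth, and the members are described here in the same 36 libraries.

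MHC class I molecules are built from a heavy chain and a light chain, and they carry peptides that were cut in the cytosol and pumped into the endoplasmic reticulum. Class II molecules carry peptides from the endocytic route and are found mainly on professional antigen presenting cells such as B cells, macrophages and dendritic cells. Restraint of MHC expression on the trophoblast, the fetal tissue that meets the uterus, is held to be part of how the mother tolerates the conceptus. Among the members, B2M is the class I light chain, TAP1 and TAP2 together form the peptide pump, TAPBP (tapasin) bridges the pump and the class I molecule, and NLRC5 is the transactivator of the class I genes. CIITA is the matching transactivator of class II genes, CD74 is the invariant chain that fills the class II groove until peptide arrives, BOLA-DRA is the alpha chain of the DR molecule, and BOLA-DMA and BOLA-DMB form the DM molecule that exchanges the invariant chain remnant for peptide. In the RefSeq gene order of the ARS-UCD2.0 assembly TAP1 lies between the proteasome genes PSMB8 and PSMB9, and BOLA-DMA and BOLA-DMB are neighbours.

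There were 9 heart libraries (fetus 7 missing), 9 libraries labelled gonads (fetus 2 missing), 8 liver libraries (fetuses 6 and 7 missing) and 10 maternal blood libraries, and library totals lay between 18231089 and 40812354 counts. Genes of the mitochondrial genome took 2.14% to 3.29% of a blood library, 3.31% to 7.23% of a gonad library, 16.3% to 36.8% of a liver library and 17.1% to 57.3% of a heart library. The organs were sequenced with a TruSeq stranded mRNA kit and the blood with a SMARTer stranded kit, so tissue, age, individual and kit differ together between blood and organs and cannot be told apart. Markers of heart muscle, hepatocytes and leukocytes were high in the libraries of those labels, although MYH7, a heart myosin, reached 3162 CPM in 1 blood library (the other heart markers were at most 19.2 CPM in any). In the libraries labelled gonads many markers, though not all, went against the label. Of 8 Sertoli cell and 6 Leydig cell markers, 4 and 1 averaged at least 1 CPM there. GATA4 averaged 0.0544 CPM, CYP17A1 0.0538 CPM and INSL3 0.0503 CPM, while WT1, which kidney also expresses, averaged 135 CPM. SOX9 averaged 3.24 CPM, above its mean of 1.76 CPM over all 36 libraries. The germ cell markers summed to 21.3 to 37.2 CPM, more than in the other tissues, but only 2 of the 6 averaged at least 1 CPM there. Over all 36 libraries KIT and DND1 led that list at 12.4 and 4.11 CPM, and the others averaged at most 0.165 CPM. In contrast, all 8 kidney markers were higher in the libraries labelled gonads than in the heart (edgeR's quasi-likelihood test, threshold 0.05 after adjustment). PAX2 was at 118 CPM, PAX8 at 84.7 CPM and SIX2 at 40.3 CPM. The kidney markers summed to 122 to 285 CPM in the liver and 282 to 333 CPM in the libraries labelled gonads, so the sums overlapped. Of the 8, 2 averaged at least 1 CPM in the liver and 7 in the libraries labelled gonads. These libraries are called gonads below by their label alone. CPM are counts per 1e6 after scaling of the libraries by edgeR's TMM method.

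Some libraries stood apart. The heart of fetus 1 held at most 2 counts of 121 genes that had at least 20 counts in every other heart. In it 4 members (TAP1, TAP2, NLRC5 and BOLA-DRA) were at 0 counts. At its depth that allows up to 0.117 counts per 1e6 before TMM scaling (the level of 3 counts). After scaling, 1 count in that library stands for 0.0616 CPM. The gonads of fetus 8 had 150 such genes, with NLRC5 at 0 counts. In the liver, 618 genes with at least 100 counts in an ET_D7 fetus showed exactly 1, 0 and 1 count in fetuses 8, 9 and 10, and of the 27 possible combinations of 0, 1 and 2 counts in those fetuses only 4 occurred among such genes. The origin of this pattern was not tested. BOLA-DMB and TAP2 belong to this set, and their tissue comparisons with the liver are given with and without the 3 ET_D9 livers.

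All 10 members were higher in maternal blood than in each fetal organ (edgeR's quasi-likelihood test over 36 libraries and 25684 genes, Benjamini-Hochberg adjusted p-value under 0.05). Of all genes tested, 31.3% were called higher in blood than in the heart, 31.2% than in the gonads, 30.9% than in the liver and 19.8% than in all 3 organs, and the members numbered 10 of 10 each time. The median log2 fold change of the members was 6.65 over the heart, 6.03 over the gonads and 4.33 over the liver, where the medians of all genes were −0.06, −0.22 and −0.19. The adjusted p-values of the members ran from 7.86e-26 to 2.29e-08 against the heart, from 2.05e-28 to 1.53e-08 against the gonads and from 9.43e-25 to 0.000891 against the liver. For each member the lowest blood library lay above the highest of the 26 organ libraries, which held for 13.6% of all genes. For TAP2 that margin was small, with 29.2 CPM in the lowest blood library and 25.2 CPM in the highest liver. In BOLA-DRA, at the other end, the lowest blood library had 747 CPM and the highest organ library 8.76 CPM.

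**Figure D1:**
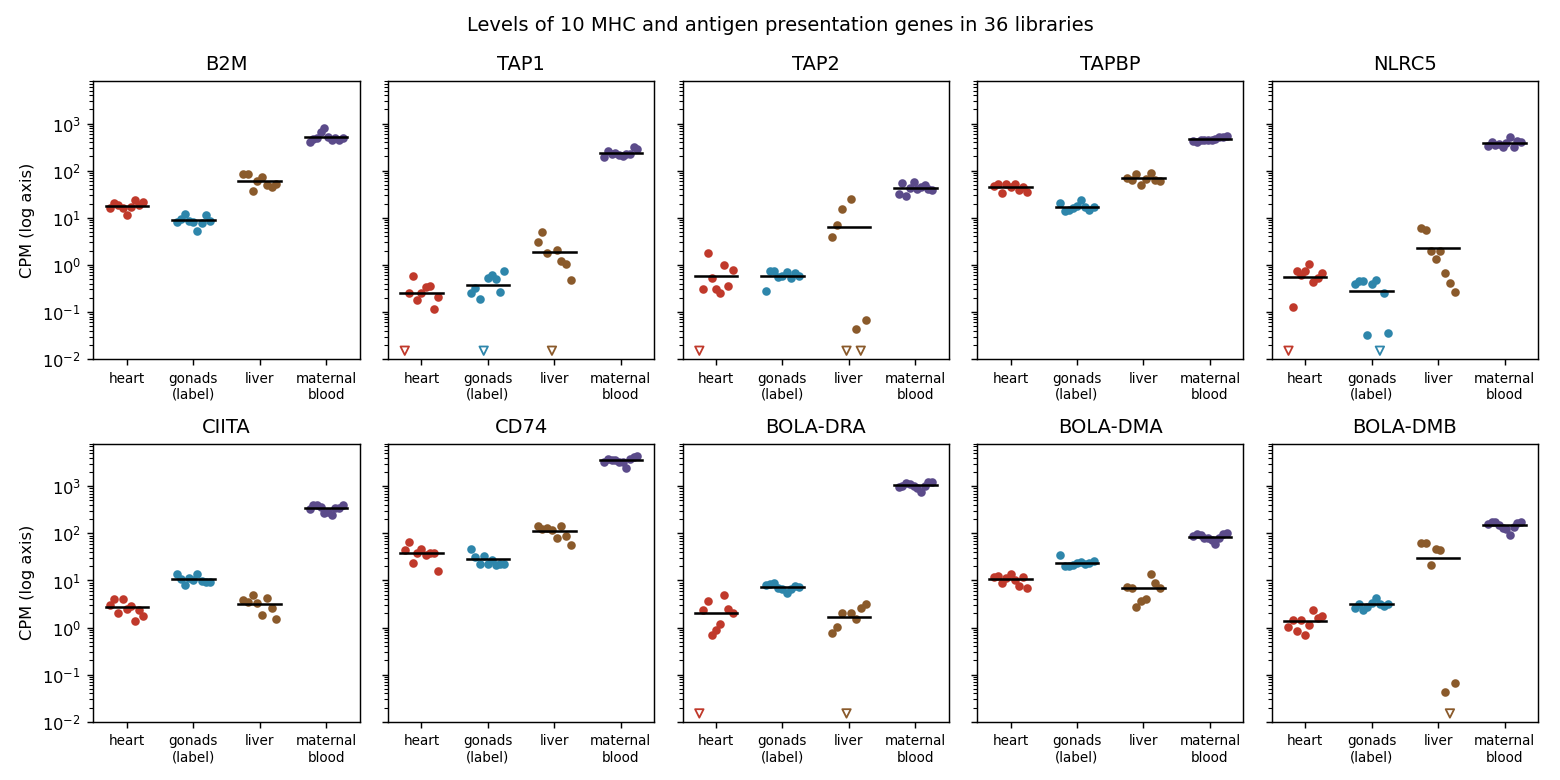
CPM (log axis) of each member in every library, by tissue. Points are libraries in order of fetal weight, the black line is the mean, and open triangles on the lower edge are libraries with 0 counts. Every blood point lies above every organ point in all 10 panels, while the order of the organs differs between genes.

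Among the class I genes the widest gaps were those of TAP1 and NLRC5. TAP1 had 199 CPM in the lowest, 228 CPM in the median and 315 CPM in the highest blood library, and its highest organ library reached 5.07 CPM. Blood exceeded the heart 859-fold, the gonads 630.1-fold and the liver 128-fold (log2 9.75 ± 0.515, 9.30 ± 0.486 and 7.00 ± 0.462, standard errors). The transactivator NLRC5 had 314, 376 and 521 CPM in the lowest, median and highest blood library and at most 6.08 CPM in an organ. Its log2 fold changes were 9.39 ± 0.561, 10.47 ± 0.580 and 7.38 ± 0.532. Without the heart of fetus 1 and the gonads of fetus 8, which were at 0 counts for NLRC5, they were 9.25, 10.29 and 7.38. In both genes the organ level rested on few counts, with medians of 4 and 12 counts per heart library for TAP1 and NLRC5, so the folds are known less closely than those of B2M and TAPBP.

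B2M, TAPBP and TAP2 were closer together. B2M, the light chain, was measured at 406 CPM in the lowest, 495 CPM in the median and 797 CPM in the highest blood library, while 8 livers averaged 60.9 ± 18.8 CPM, 9 hearts 18.1 ± 3.76 CPM and 9 gonads 8.84 ± 2.06 CPM (SD). Blood therefore exceeded the liver 8.55-fold, the heart 28.7-fold and the gonads 58.9-fold. TAPBP had 406 to 547 CPM in blood with a median of 451 CPM, and exceeded the liver 6.77-fold, the heart 10.5-fold and the gonads 26.9-fold. Both genes were read in every organ library, with at least 180 counts of B2M and 690 of TAPBP, so a low level rather than absence was measured in the organs. The pump subunit TAP2 had 29.2, 42.3 and 58.4 CPM in the lowest, median and highest blood library. It was 68.5-fold higher in blood than in the heart and 72.2-fold higher than in the gonads, but 6.61-fold higher than in the liver, and 4 of the 8 livers held at most 2 counts of it. Without the ET_D9 livers its log2 fold change over the liver went from 2.72 to 2.08 (adjusted p = 0.0013, edgeR).

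The class II genes were led by CD74. Its level in blood was 2502 CPM in the lowest, 3689 CPM in the median and 4441 CPM in the highest library, against means of 110.1 ± 31.8 CPM over 8 livers, 38.1 ± 14.2 CPM over 9 hearts and 28.0 ± 8.60 CPM over 9 gonads (SD). Those are folds of 32.6, 94.2 and 128. BOLA-DRA was at 747, 1016 and 1249.9 CPM in the lowest, median and highest blood library, and 498-fold, 142-fold and 623-fold over the heart, gonads and liver. CIITA, the class II transactivator, had 240.4, 347 and 396 CPM in blood, and its smallest fold was the one over the gonads, 31.9, against 128 over the heart and 106 over the liver. The DM chains had the smallest class II folds over the liver for BOLA-DMB and over the heart and gonads for BOLA-DMA. BOLA-DMA had 60.4 to 102 CPM in blood and a fold of 3.57 over the gonads, 8.07 over the heart and 12.5 over the liver. BOLA-DMB had 94.5 to 176 CPM in blood and a fold of 108 over the heart, 48.0 over the gonads and 4.995 over the liver. In the DM pair the organ with the smallest fold thus differed between the chains, although they form 1 protein. Without the ET_D9 livers the log2 fold change of BOLA-DMB over the liver was 1.67 in place of 2.32 (adjusted p = 2.92e-08, edgeR).

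**Figure D2:**
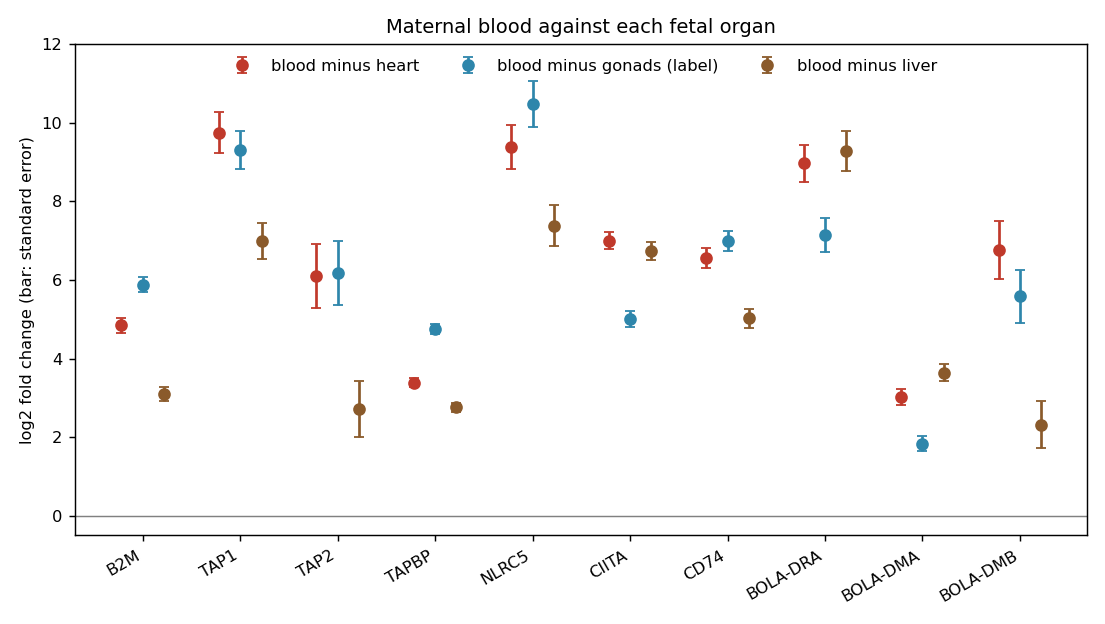
Log2 fold change of maternal blood over each fetal organ for the 10 members, from 1 edgeR fit of 36 libraries, with bars of 1 standard error. All 30 points lie above 0, from 1.83 for BOLA-DMA over the gonads to 10.47 for NLRC5 over the gonads.

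The markers of leukocytes moved with these differences. The summed level of 6 leukocyte markers was 7014 to 8441 CPM in blood, 82.5 to 121 CPM in the liver, 67.8 to 90.8 CPM in the heart and 29.7 to 44.0 CPM in the gonads, and all 6 were higher in blood than in each organ, by median log2 fold changes of 6.77, 8.48 and 8.69. For B cells the sums were 1195 to 1616 CPM in blood and at most 35.9 CPM in an organ, where MS4A1 averaged at most 0.272 CPM. The sum of macrophage markers was 245 to 549 CPM in blood and 207 to 325 CPM in the liver, and 20.1 to 35.2 CPM in the heart and gonads, with AIF1 at 0 counts in all 36 libraries. Endothelial markers ran the other way, at 62.5 to 82.8 CPM in blood and 133 to 415 CPM in the organs. The part of leukocyte number in the levels of the members was not tested, and in these bulk samples fewer cells of a type and less RNA per cell cannot be told apart.

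The other genes of the pathway gave counts in the same direction for the chains and mixed counts for the general machinery. The 3 class I heavy chain entries (BOLA, JSP.1 and BOLA-NC1) were all higher in blood than in each organ, with median log2 fold changes of 10.42, 9.46 and 7.83 over the heart, gonads and liver. BOLA averaged 2301 CPM in blood and 10.1 CPM in the liver, and JSP.1 2273 CPM and 6.32 CPM. These entries are near-identical copies, so how reads were shared between them is uncertain. All 9 other class II chain genes measured were higher in blood as well, led by BOLA-DRB3 at 550.2 CPM, BOLA-DQB at 169 CPM and BOLA-DOA at 140.3 CPM. Of 12 genes that supply or edit class I peptides, 8 were higher and 1 lower in blood than in the heart, 10 and 1 against the gonads, and 8 and 1 against the liver. The chaperones CALR, CANX and PDIA3 differed little, with log2 fold changes of −0.19, 0.44 and −0.36 over the heart. By contrast the immunoproteasome subunits PSMB8 and PSMB9, the neighbours of TAP1, which were picked out after their values were seen, were higher in blood by 7.32 and 8.38 on the log2 scale over the heart.

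Of 6 genes for class II peptide supply, 5 were higher in blood than in each organ, among them the proteases CTSD, CTSB and CTSS, with CTSS 6.10, 5.84 and 5.37 higher on the log2 scale over the heart, gonads and liver. Of 12 regulators of MHC promoters, 9 were higher in blood than in each organ and 3, 3 and 2 were lower than in the heart, gonads and liver. SPI1, a myeloid and B cell factor, was 8.96 higher on the log2 scale in blood than in heart tissue, while NFYC, a subunit of the NF-Y factor that binds these promoters, was lower in that comparison (log2 −0.29, adjusted p = 0.0108, edgeR). Of 6 genes of the interferon gamma pathway, 5 were higher in blood than in each organ, including JAK1, IFNGR1 and IFNGR2. Of the class I-like genes, 3 of 5 tested were higher in blood than in each organ. Here FCGRT, the neonatal Fc receptor, differed by 0.35 over the heart and 0.06 over the gonads (log2, adjusted p = 0.0525 and 0.753, edgeR) and was called against the liver at 0.80, and the MR1 contrast with the liver was −0.59 (adjusted p = 0.62). That contrast averages very unlike livers, since MR1 had 2508 and 2028 counts in fetuses 4 and 5 and at most 1 in each other liver.

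Within the fetus the members split by organ. In the fit of the 26 organ libraries (25095 genes), 7 members were called higher in the liver than in the heart, where 30.7% of all genes were, and 1 was called lower, where 27.9% were. Against the gonads 7 were higher in the liver (33.6% of all genes) and 3 lower (30.8%). Between gonads and heart 3 were higher in the gonads (23.1%) and 2 lower (23.5%). The 7 genes were the same in both liver comparisons, namely all 5 class I members with CD74 and BOLA-DMB, and the 3 that were highest in the gonads were the class II genes CIITA, BOLA-DRA and BOLA-DMA. Another scaling, by median-ratio size factors, moved the median of all genes to 0.13 in both liver comparisons and, for blood against liver, from −0.19 to −0.31, and under it the lower level of BOLA-DMA in the liver than in the heart was no longer called (log2 −0.49, adjusted p = 0.0594, edgeR). That call was also lost without fetus 3, 4 or 5 (−0.46, −0.53 and −0.49, adjusted p = 0.0777, 0.0671 and 0.0907, edgeR).

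B2M was the class I gene with the clearest order. Its level ran from 36.9 to 85.9 CPM in the liver with a median of 56.0 CPM, from 11.3 to 24.0 CPM in the heart with a median of 18.3 CPM and from 5.32 to 12.3 CPM in the gonads with a median of 8.43 CPM, so that the liver did not overlap the others and the heart and gonads overlapped. The log2 differences were 1.75 ± 0.178 for liver over heart, 2.78 ± 0.184 for liver over gonads and −1.04 ± 0.172 for gonads over heart, all called. TAPBP averaged 68.7 ± 12.3 CPM over 8 livers, 44.4 ± 6.85 CPM over 9 hearts and 17.3 ± 3.08 CPM over 9 gonads (SD). For this gene the gonads lay apart from the heart, and heart and liver overlapped only at their ends, 50.5 CPM being the lowest liver and 52.1 CPM the highest heart.

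TAP1, TAP2 and NLRC5 were near the limit of measurement in the heart and gonads, where no library held more than 63 counts of any of them. TAP1 was called higher in the liver than in the heart (log2 2.81 ± 0.728, adjusted p = 0.0016) and gonads (2.27 ± 0.702, adjusted p = 0.0063, edgeR), and the gonads and heart differed by 0.54 ± 0.682 (adjusted p = 0.54). With the fetus as a block, which pairs organs of the same animal, the liver to gonad difference of TAP1 was 2.14 (adjusted p = 0.0634, edgeR). For NLRC5 the difference from the heart was 2.04 ± 0.729 (adjusted p = 0.0182) and from the gonads 3.04 ± 0.75 (adjusted p = 0.0009, edgeR), the former being 1.497 with the block (adjusted p = 0.182) and, without fetus 1 or without fetus 2, 1.49 and 1.59 (adjusted p = 0.0767 and 0.0788). TAP2 was higher in the liver by 3.41 ± 0.959 and 3.45 ± 0.952 on the log2 scale (adjusted p = 0.0034 and 0.0026, edgeR), and both calls were lost with the block (2.43 and 2.13, adjusted p = 0.184 and 0.255). Without the ET_D9 livers they were 4.08 and 4.12 (adjusted p = 2.42e-05 and 1.58e-05, edgeR). Those values average very unlike livers, since TAP2 counts were 70, 147, 257, 0 and 747 in fetuses 1 to 5 and 1, 0 and 1 in fetuses 8 to 10.

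CIITA had 7.91 to 13.9 CPM in the gonads with a median of 10.1 CPM, 1.41 to 4.05 CPM in the heart with a median of 2.51 CPM and 1.49 to 4.94 CPM in the liver with a median of 3.40 CPM. Every gonad library lay above every heart and liver library, while heart and liver overlapped (log2 0.26 ± 0.243, adjusted p = 0.365, edgeR). BOLA-DRA was also highest in the gonads, with 5.32 to 8.76 CPM in the gonads, up to 4.92 CPM in the heart and up to 3.19 CPM in the liver. Its log2 difference was 1.84 ± 0.547 between gonads and heart (adjusted p = 0.0065) and −0.30 ± 0.556 between liver and heart (adjusted p = 0.681, edgeR). Without the heart of fetus 1 and the gonads of fetus 8 the gonad to heart difference was 1.70 (adjusted p = 0.0056, edgeR). BOLA-DMA was again highest in the gonads, at 19.8 to 34.1 CPM, and its liver libraries, at 2.69 to 13.7 CPM, overlapped the heart, at 6.94 to 13.9 CPM. Beside these values, the B cell markers summed to 9.65 to 22.5 CPM in the gonads, 3.60 to 8.78 CPM in the heart and 7.89 to 35.9 CPM in the liver. The dendritic cell markers summed to 29.9 to 44.5, 14.8 to 25.2 and 20.4 to 43.4 CPM in the same order. These sums rest on few genes, since only 1, 1 and 3 of 6 B cell markers averaged at least 1 CPM in that order. For the 6 dendritic cell markers the numbers were 2, 1 and 4. The liver sums include the B cell marker CD79A and the dendritic cell marker FLT3. Both had 1, 0 and 1 count in the livers of fetuses 8, 9 and 10, a pattern whose origin was not tested, and 0 in that of fetus 4. MS4A1, CD79A and CD79B averaged 0.0668, 0.315 and 0.0892 CPM in the gonads. SPI1 was higher in the gonads than in the heart (log2 1.97). The part of these markers and of SPI1 in the level of the class II genes was not tested.

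CD74 and BOLA-DMB departed from the other class II genes. CD74 was highest in the liver, at 56.6 to 141 CPM with a median of 122 CPM, against medians of 37.6 CPM in the heart and 22.7 CPM in the gonads. Its log2 difference was 1.53 ± 0.224 from the heart and 1.97 ± 0.226 from the gonads, and the gonads and heart were not called apart (−0.44 ± 0.215, adjusted p = 0.0937, edgeR), although they were without fetus 1 (−0.54, adjusted p = 0.0448) or without fetus 10 (−0.51, adjusted p = 0.0287). BOLA-DMB had 3.09 ± 0.565 CPM in the gonads and 1.36 ± 0.504 CPM in the heart (SD, n = 9 each), and those ranges did not overlap (2.32 CPM in the lowest gonad and 2.31 CPM in the highest heart library). The fit with all livers did not call them apart (log2 1.17 ± 0.754, adjusted p = 0.208), and the fit without the ET_D9 livers did (1.17 ± 0.217, adjusted p = 6.41e-05, edgeR). In the liver BOLA-DMB was 4.44 ± 0.850 higher than in the heart and 3.26 ± 0.798 higher than in the gonads, or 5.11 and 3.94 without the ET_D9 livers. With the block the latter difference was 2.72 (adjusted p = 0.0605, edgeR). The macrophage markers, as above, were also highest in the liver, with all 8 tested higher there than in the heart.

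A weight slope was called for 2 members, both in the liver. Over a straight line in weight, NLRC5 fell by 0.96 ± 0.142 per 0.1 g on the log2 scale (log2 −0.96, adjusted p = 0.0144) and BOLA-DMB fell by 2.84 ± 0.395 (log2 −2.84, adjusted p = 0.0109, edgeR), 2 of 10 members where 2.23% of 16605 genes were called. Of the 371 genes called, 298 fell with weight and 73 rose. With a spline that allows any shape, 1 member, BOLA-DMB, was called (adjusted p = 0.00116) where 1.81% of genes were. Between transfer groups 688 genes (4.14%) were called, 604 of them lower in ET_D9 and 84 higher. Among them were 3 members, all lower in ET_D9. These were BOLA-DMB (log2 −10.27 ± 0.626, adjusted p = 2.46e-05), TAP2 (−8.08 ± 1.864, adjusted p = 0.0438) and NLRC5 (−2.99 ± 0.671, adjusted p = 0.0397, edgeR). BOLA-DMB and TAP2 had 1, 0 and 1 count in the ET_D9 livers, a pattern whose origin was not tested. Their calls by slope, spline or transfer group cannot tell weight or transfer group from that pattern. The call of TAP2 was lost without fetus 8, 9 or 10 (adjusted p = 0.149, 0.18 and 0.139), that of NLRC5 without fetus 1, 2, 5, 8, 9 or 10 (adjusted p between 0.0519 and 0.179), and both with the filter of 1 count (adjusted p = 0.0693 and 0.0666, edgeR). With transfer group as a covariate the weight slopes were −1.35 for NLRC5 (adjusted p = 0.664) and −0.54 for BOLA-DMB (adjusted p = 0.73), and no gene of the liver was called in that fit.

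The counts of BOLA-DMB show a step rather than a slope. BOLA-DMB had 1126, 1297, 349, 637 and 1320 counts in the livers of fetuses 1 to 5, and 1, 0 and 1 count in those of fetuses 8, 9 and 10. In the hearts of fetuses 8, 9 and 10 it had 64, 28 and 51 counts and in their gonads 186, 142 and 180, so the low liver values were not found in the other organs of these fetuses. Summed over the libraries, BOLA-DMB was 1402 times more frequent in ET_D7 than in ET_D9 livers (95% exact interval 388 to 11578). That interval treats the ET_D9 sum of 2 counts as random draws of reads. Since 618 genes shared these same 3 counts and their origin was not tested, the ratio and interval describe the deposited counts and not a measured level. NLRC5 did not fall to 0 or 1 count, with 6.08, 5.55, 1.95, 1.32 and 1.96 CPM in fetuses 1 to 5 and 0.656, 0.415 and 0.271 CPM in fetuses 8, 9 and 10. Its fall was uneven along weight, with fetuses 1 and 2 well above all the others. The transfer groups did not overlap, but the ET_D9 values came from 15, 8 and 4 counts, in a gene described here because it was called. The share of all genes so separated was not counted. Without fetuses 9 and 10 neither slope was called (NLRC5 −1.10, adjusted p = 0.484, BOLA-DMB −2.69, adjusted p = 0.496, edgeR), and 0 genes in all were in these 6 livers. Leaving out fetus 9 or fetus 10 alone also ended both calls (adjusted p between 0.0785 and 0.0991).

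The fitted slope of BOLA-DMB differed between organs. In 1 fit of the 26 organ libraries, added after the counts were seen, it was 3.17 ± 0.318 per 0.1 g lower in the liver than in the heart (difference −3.17, adjusted p = 5.57e-07) and 3.03 ± 0.32 lower than in the gonads (difference −3.03, adjusted p = 1.36e-06, edgeR). The liver slopes of BOLA-DMB and TAP2 include the 1, 0 and 1 counts of the ET_D9 livers. Their p-values therefore cannot tell a trend with weight from that count pattern. For TAP2 the difference from the heart was −2.47 ± 0.690 (adjusted p = 0.0345) and from the gonads −2.39 ± 0.689 (adjusted p = 0.0518, edgeR). Without the heart of fetus 1 and the gonads of fetus 8 the former was −2.31 and no longer called (adjusted p = 0.0575, edgeR). The difference for NLRC5 was −1.12 ± 0.419 from the heart (adjusted p = 0.12) and −0.51 ± 0.427 from the gonads (adjusted p = 0.697), so its slope was not shown to differ between organs. Between gonads and heart no difference in slope was called (lowest adjusted p = 0.928, unadjusted p under 0.05 for 0 of 10 members, edgeR). Among the other listed genes, 5 had the same counts of 1, 0 and 1 in the ET_D9 livers. These were BOLA-DRB3, a class II beta chain with 776 and 788 counts in fetuses 1 and 2 and 0 in fetuses 3 to 5, MR1 with 2508 and 2028 counts in fetuses 4 and 5 and at most 1 in fetuses 1 to 3, the B cell gene CD79A with 127 to 643 counts in 4 ET_D7 livers and 0 in fetus 4, and FLT3 and CD8A, a dendritic and a T cell gene, with 370 and 374 counts and with 244 and 245 counts in fetuses 1 and 2 and 0 in fetuses 3 to 5. The liver of fetus 4 is also the one in which TAP1, TAP2 and BOLA-DRA were at 0 counts.

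**Figure D3:**
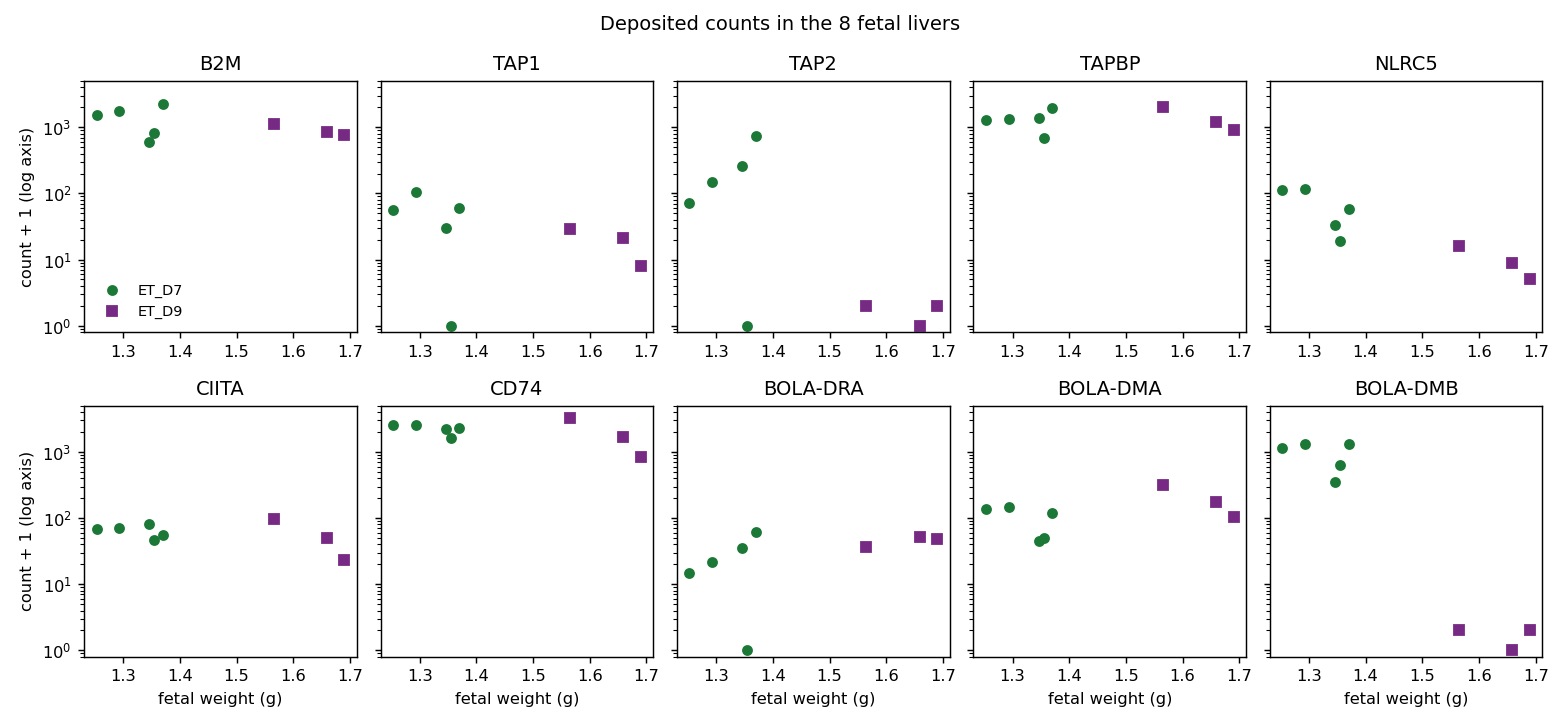
Deposited counts plus 1 (log axis) of each member in the 8 livers against fetal weight in g, with circles for ET_D7 and squares for ET_D9. BOLA-DMB and TAP2 drop to 1, 0 and 1 count in the 3 ET_D9 livers, whereas B2M, TAPBP, CD74, CIITA and BOLA-DMA keep counts between 22 and 3220 there.

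In the remaining liver genes no slope was called. B2M was lower in the heavier fetuses by 0.19 ± 0.069 per 0.1 g (log2 −0.19, adjusted p = 0.191) and CD74 had the like slope of −0.19 ± 0.076 (adjusted p = 0.232, edgeR). The slope of TAP2 was −2.29 ± 0.802 (adjusted p = 0.171, edgeR), and DESeq2 called it (−2.43, adjusted p = 0.00435). The slope of B2M was called without fetus 3 (−0.22, adjusted p = 0.0402, edgeR). Of markers that bear on these cells, C1QC, a macrophage complement chain, was lower with weight in the liver (log2 −0.23 per 0.1 g, adjusted p = 0.0339) and in ET_D9 (−0.69, adjusted p = 0.0476, edgeR). The B cell gene BLK was lower in ET_D9 (−1.25, adjusted p = 0.0202, edgeR). C1QC and BLK were named out of 9 macrophage and 6 B cell markers because they were called. CD79A was also lower in ET_D9 (−8.25), but it had the 1, 0 and 1 counts described above there, a pattern whose origin was not tested. The part of these markers in the liver values of the members was not tested.

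In maternal blood no member was called along fetal weight. The straight-line slopes of the 10 members lay between −0.05 and 0.09 on the log2 scale per 0.1 g, 8 above 0 and 2 below (adjusted p-values from 0.372 to 0.999, unadjusted p under 0.05 for 2 members, edgeR), and 0% of the 16284 genes of the tissue were called, 1578 having an unadjusted p under 0.05 and DESeq2 calling 123. TAPBP had the lowest of these p-values. Its CPM were 425, 406, 438, 450.3 and 444 in the heifers of fetuses 1 to 5 and 451, 461, 508, 523 and 547 in those of fetuses 6 to 10. All 5 ET_D9 heifers thus lay above all 5 ET_D7 heifers, narrowly at the boundary, in the gene picked by its p-value. The share of all genes so separated was not counted. In the transfer tests in blood the lowest adjusted p-value of the 10 members was 0.633 (edgeR). The slope of TAPBP was 0.08 ± 0.022 per 0.1 g (adjusted p = 0.372, edgeR), which DESeq2 called (0.08, adjusted p = 0.0465). TAP1 ranged from 199 to 315 CPM across heifers with its highest values in those of fetuses 9 and 10 (315 and 285 CPM), at a slope of 0.09 ± 0.034 that was not called (adjusted p = 0.44, edgeR). With a spline 0 members and 0.129% of genes were called in blood (4 members at an unadjusted p under 0.05 and 0 by DESeq2), and between transfer groups 0 members and 0% of genes (1 member at an unadjusted p under 0.05, 0 by DESeq2, with 1237 and 65 genes).

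**Figure D4:**
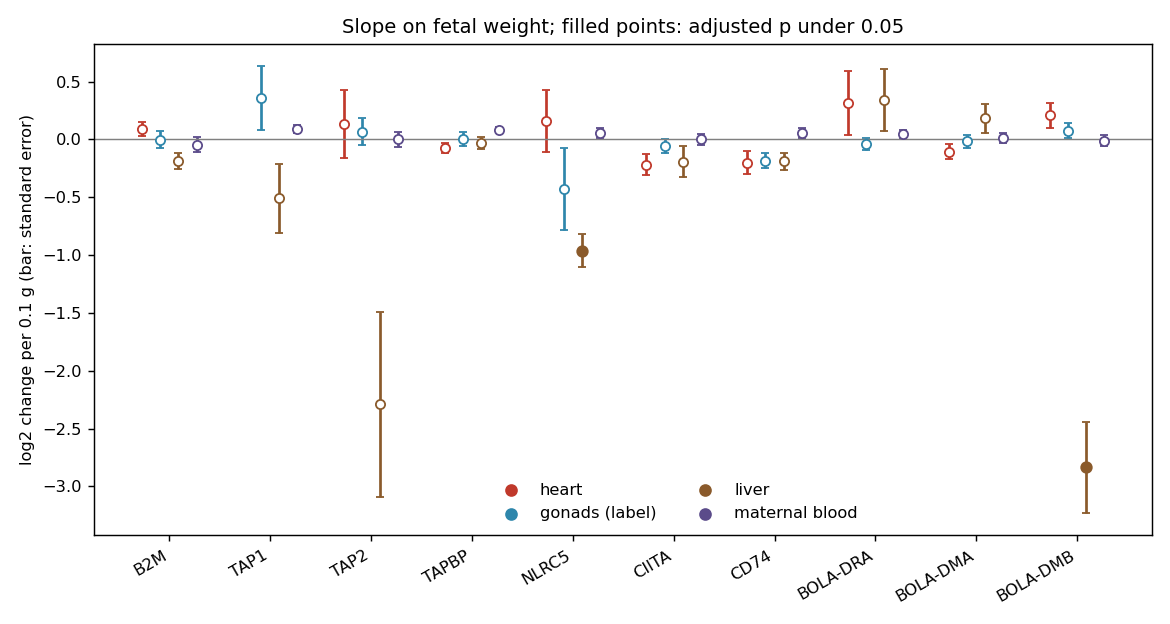
Slope of each member on fetal weight (log2 change per 0.1 g) in each tissue with bars of 1 standard error. Filled points have an adjusted p-value under 0.05 in edgeR. They are NLRC5 and BOLA-DMB in the liver, and the blood slopes lie between −0.05 and 0.09. TAP1 was not fitted in the heart.

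The heart and gonads gave no member along weight either. In the heart 0 of 9 tested members had a called slope (adjusted p-values from 0.144 to 0.794, unadjusted p under 0.05 for 1) where 6.77% of 16250 genes had, TAP1 being left out for too few counts, and a spline called 0 members and 0% of genes (1298 genes at an unadjusted p under 0.05, 535 genes and 1 member by DESeq2). That single unadjusted slope was CIITA at −0.22 ± 0.091 per 0.1 g, with 3.08, 4.05, 2.08, 3.94 and 2.51 CPM in fetuses 1 to 5 and 2.81, 1.41, 2.38 and 1.75 CPM in fetuses 6, 8, 9 and 10. Transfer group called 0 members and 0.0492% of genes in the heart. In the gonads 0 of 10 members were called by slope (0% of 17809 genes, with 1001 at an unadjusted p under 0.05 and 0 by DESeq2), 0 by spline (0% of genes, with 2241 at an unadjusted p under 0.05 and 1358 by DESeq2) and 0 by transfer group (0.354% of genes, edgeR). CD74 had the gonad slope with the smallest adjusted p-value, −0.18 ± 0.062 (adjusted p = 0.849), at 47.5 CPM in fetus 1 and 21.7 to 33.6 CPM in the others.

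Across heifers the class II genes varied together. The 10 pairs of class II members had Pearson correlations of 0.831 to 0.975 over the 10 blood libraries (log2 CPM, permutation test, largest adjusted p = 0.0117 over the 45 pairs of members) and Spearman correlations of 0.721 to 0.915, 7 of the 10 with an adjusted p-value under 0.05 (largest 0.0956). Without the 2 heifers farthest from the median of the first gene of a pair the Pearson correlations were 0.63 to 0.97. Among class I members they ran from −0.417 to 0.596 and between the classes from −0.37 to 0.681, with 0 of 35 pairs passing the 0.05 threshold after adjustment (permutation test, lowest adjusted p = 0.122). Without the 2 farthest heifers those between the classes ran from −0.509 to 0.776, and that of NLRC5 with CD74 went from −0.288 to 0.776. All values of a library share its scaling, and the blood libraries fell into depth classes of 5 and 5. After centring on the depth classes, the class II pairs had correlations of 0.779 to 0.965, and 0 of the 10 passed the threshold (exact permutation test within the classes, adjusted p from 0.0734 to 0.114), as did 0 of the other 35 pairs. The heifer of fetus 7 was lowest for all 5 class II genes, with CD74 at 2502 CPM against 3210 to 4441 CPM in the others, BOLA-DRA at 747 against 903 to 1249.9 CPM and BOLA-DMB at 94.5 against 125 to 176 CPM. The same heifer was highest for NLRC5 at 521 CPM, the next being 419 CPM. Its summed macrophage markers were the lowest of the 10, at 245 CPM against 333 to 549 CPM, and its B cell markers, at 1229 CPM, the second lowest, and their part in its class II levels was not tested. B2M stood out in other animals, at 797 and 655 CPM in the heifers of fetuses 5 and 4 against 406 to 512 CPM in the rest.

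**Figure D5:**
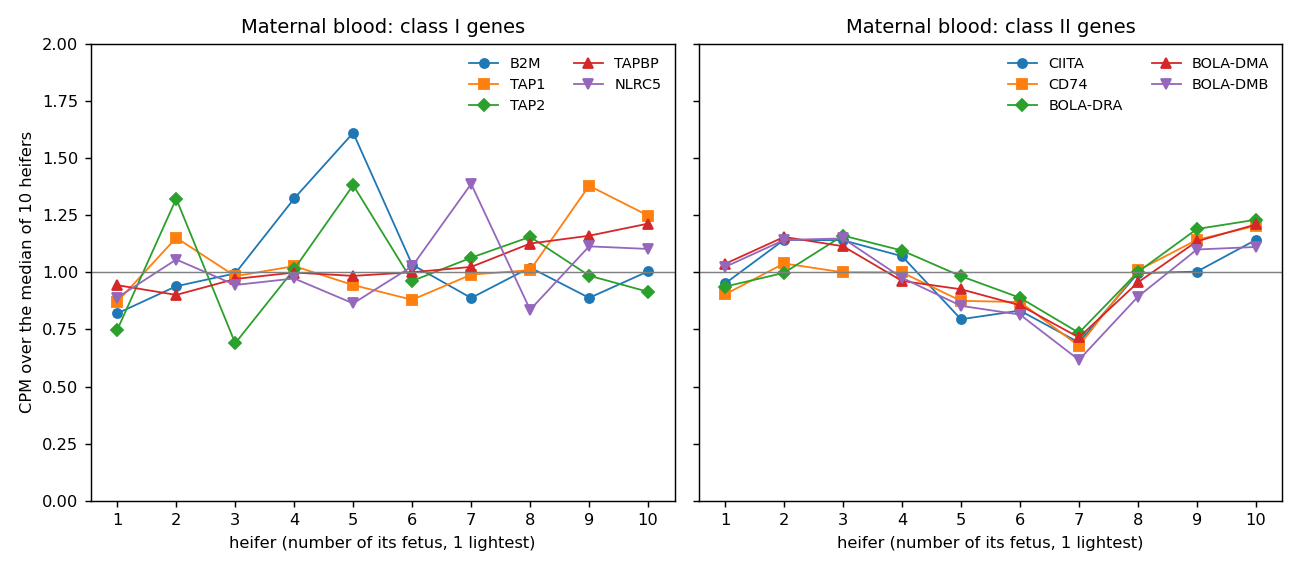
Level of each member in the blood of 10 heifers, as CPM over the median of the heifers, in order of the weight of the fetus carried. The 5 class II lines are lowest in heifer 7, and the class I lines spread, with B2M highest in heifer 5 and NLRC5 in heifer 7.

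By deviation from the tissue mean over all 36 libraries, the genes most like B2M among 13132 well measured genes were IKBIP, RRN3 and CLASP2 (Pearson r of 0.903, 0.818 and 0.803, a description over libraries that share their scaling). CD74 was most like ATP6, a gene of the mitochondrial genome, POLR2A and MVP (0.825, 0.808 and 0.802). TAP1 was most like ZNF319, AKAIN1 and B3GALT4 (0.792, 0.783 and 0.765), NLRC5 most like SLC35E4, PLAU and an entry with no symbol in the reference (0.81, 0.799 and 0.797), and BOLA-DRA most like TMEM187, FDXACB1 and VPS37A (0.764, 0.713 and 0.707). The likeness of NLRC5 to its first match was 0.918 in the liver and −0.02 in blood, and that of BOLA-DRA to TMEM187 was 0.927 in the heart and −0.83 in the gonads.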

How the data were processed

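RNA of 9 fetal hearts, 9 gonads, 8 livers and 10 maternal blood samples was sequenced. The authors discarded 1 heart, 1 gonads and 2 liver samples for RNA quality. The deposited values are raw read counts per Entrez gene, which the authors made with FastQC 0.11.9, Trimmomatic, STAR 2.7.0b and featureCounts of Subread 2.0.3 on ARS-UCD1.3. The strand and multimapping options are not given in the sources used here, so overlapping genes and near-identical copies are uncertain. No pair of libraries held identical counts.

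The counts were tested with edgeR 4.0.16 (R 4.3.3; quasi-likelihood test, TMM scaling, Benjamini-Hochberg adjustment over all genes tested, threshold 0.05). Blood was compared with each organ in 1 fit of 36 libraries, and the organs with each other in 1 fit of 26, over genes with at least 1 count. Fetal weight (a straight line, and a spline with 3 degrees of freedom) and transfer group were tested within a tissue over genes with at least 10 counts in 4 libraries. DESeq2 1.42.0, other scalings, filters, covariates and left-out libraries were tried, and the fits were tested on simulated data. Errors after ± are SD for levels and standard errors for log2 changes. Intervals and the level of 3 counts cover counting error only. P-values of tests within a tissue measure the spread between these animals. Those of fits over several tissues measure the spread between libraries, since organs of the same fetus entered them as separate libraries unless the block is named.

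The members and all gene lists were chosen with earlier results of these data known. All members are named. Other listed genes are named if among the 3 of their list with the largest mean CPM or called in a weight test, and those named beyond this, markers and genes of the liver count pattern included, were chosen after their values were seen. Likeness was taken for B2M, TAP1, NLRC5, CD74 and BOLA-DRA. Correlations in blood were added after the data were seen, with 100000 permutations. Organs with the same number come from the same fetus, which pairs them. The deviations of such pairs correlated between −0.43 and 0.46 (median 0.026, 23 pairs, 7 over 0.1). Sequences are not reported here.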

Additional observations from a re-analysis of the deposited data

Results flagged for a closer look

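In 4 of the 40 sets of libraries examined (each member in each tissue) the lowest or highest library lay far from its nearest neighbour by Dixon's test, where chance gives about 1 in 20. In the gonads of fetus 1, TAP2 was lowest at 0.280 CPM (the next was 0.537 CPM), CD74 highest at 47.5 CPM (the next was 33.6 CPM) and BOLA-DMA highest at 34.1 CPM (the next was 25.3 CPM). In maternal blood NLRC5 was highest in the heifer of fetus 7, at 521 CPM, the next being 419 CPM.

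The fitted slope on fetal weight differed between organs for BOLA-DMB, by −3.17 per 0.1 g on the log2 scale between liver and heart and by −3.03 between liver and gonads. For TAP2 it differed by −2.47 between liver and heart. These genes had 1, 0 and 1 count in the livers of fetuses 8, 9 and 10. The fit was added after those counts were seen and cannot tell a trend with weight from them.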

How the results depend on the processing

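All 510 alternative values of the members in blood against organs kept their direction and call. Between organs 492 of 510 did, with 11 calls lost and 3 gained. With the fetus as replicate block, gonads minus heart of TAP2 turned to 0.30, and leaving out 1 fetus at a time gave −0.12 to 0.40, against −0.03. The block changed no call of blood against organs, where a number links a heifer with the fetus it carried (deviations correlated between −0.14 and 0.11 over 26 pairs, 1 over 0.1). With transfer group as covariate the liver slope of TAP2 turned to 1.56. Member slopes and transfer differences with an unadjusted p of 0.05 or more were given only as ranges: 55 of 456 alternative values changed sign for the slope and 19 of 403 for transfer, and 0 passed the threshold (edgeR and DESeq2).

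Counts of genes called moved more than those of members. A log2 fold change above 1 left 7393 genes between gonads and heart. DESeq2 called 535 genes and 1 member (spline), 3073 genes (line) and 2155 genes (transfer) in the heart, 1358 (spline) and 940 (transfer) in the gonads, 1765 genes and 2 members (spline), 1518 (line) and 1520 (transfer) in the liver, and 487 (spline), 123 genes and 1 member (line) and 65 (transfer) in blood. The filter of 1 count left 706 genes for the heart line, 3 for gonad transfer, 157 for the liver line, 441 genes and 1 member for liver transfer, and 1 for the blood line. Transfer group as covariate, and leaving out fetuses 9 and 10, each left 0 genes in heart and liver and 0 members in the liver for the line. Median-ratio factors and leaving out the mitochondrial genome each left 6 genes for gonad transfer, and depth class as covariate gave 1 gene for the blood line.

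Leaving out 1 fetus at a time gave 0 to 3947 genes for the heart line, 0 to 2846 for heart transfer, 0 to 1501 for the gonad spline, 0 to 386 for gonad transfer, 4 to 134 for the blood spline, 0 to 2 for the blood line and 0 to 1 for blood transfer. In the liver it gave 234 to 593 genes and 1 to 3 members (spline), 23 to 740 genes and 0 to 3 members (line), and 227 to 1014 genes and 1 to 3 members (transfer). The transfer call of NLRC5 was lost without fetus 1, 2, 5, 8, 9 or 10 and that of TAP2 without fetus 8, 9 or 10. The causes were not tested. Depth limits TAP1, TAP2 and NLRC5 in the organs.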

Other observations

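The class II DQ genes differed between heifers in a way that the members did not, a pattern picked out after the values were seen. BOLA-DQB had 452 CPM in the blood of the heifer of fetus 5 and 0.899 CPM in that of fetus 7, while BOLA-DRB3 stayed between 429 and 712 CPM in all 10 heifers. How reads were divided between near-identical DQ copies is not given in the sources used here.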
